A study of Mus musculus with 8 samples.

Results

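Growth factor, PI3K, GTPase and matricellular genes reported elsewhere as targets of the microRNA miR-29 were followed in cochleae that had or lacked miR-29a. The members, Igf1, Pdgfa, Pdgfb, Pdgfc, Pdgfrb, Vegfa, Pik3r1, Sparc and Cdc42, were found by their gene symbols, and all 9 were among the 21895 genes of the deposited expression table. Whether they are targets in the cochlea was not tested by these data, which hold mRNA levels only. Total RNA from the cochlea of wild-type mice (WT1 to WT4) and of mice homozygous for the miR-29a deletion (miR-29a-/-, KO1 to KO4) was sequenced after ribosomal RNA had been removed, with 4 libraries per group. The miR-29a-deficient strain was on the C57BL/6 background, heterozygous mice were bred to give the genotypes, which were read by PCR from tail or toe DNA, and females and males were used. No other allele and no treatment was named for either group. The age was given as 21 days in the series' text and as 2 months in the methods, and it entered no comparison. Nothing in the labels says whether a library came from 1 mouse or from a pool, so p-values measure the spread between these libraries. MiR-29a itself was not analysed here, and the genotype labels were therefore not checked against it.

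A microRNA guides the silencing complex to an mRNA mainly through its seed, a short stretch near its 5′ end that pairs with matching letters in the 3′-UTR, and the usual effect is less mRNA and less protein. The miR-29 family is best known for repressing collagens and other matrix genes. Its members share the seed, so the copies left in a miR-29a KO mouse can in principle pair with the same letters. The mature sequences from RefSeq (GRCm38.p6) are given below because every match that follows derives from them, with the seed, bases 2 to 8, in capitals. MiR-29a-3p comes from chr6:31062673-31062694 on the minus strand, miR-29c-3p from chr1:195037600-195037621 on the plus strand, and miR-29b-3p from chr6:31063025-31063047 on the minus strand and from chr1:195037091-195037113 on the plus strand.
mmu-miR-29a-3p: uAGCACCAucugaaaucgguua
mmu-miR-29b-3p: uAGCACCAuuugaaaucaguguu
mmu-miR-29c-3p: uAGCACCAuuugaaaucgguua

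The letters that pair with the seed, TGGTGCT in DNA on the transcript strand, were searched in the longest annotated 3′-UTR of each gene (GENCODE mouse release M21, GRCm38). They occurred in 8 of the 9 genes and in 15.5% of the 14832 tested genes with an annotated 3′-UTR. Since the 9 genes had been reported elsewhere as targets, nothing was read from this share. In Igf1, Pdgfc and Vegfa the match was followed by A, which makes an 8-base match (TGGTGCTA), found in 3.38% of the tested genes. Sparc was the gene without TGGTGCT in its longest 3′-UTR of 1085 bases. It held the other 7-base kind, GGTGCTA, which pairs with bases 2 to 7 only and ends in A, at 2 places whose starts lay 33 bases apart. GGTGCTA also forms the end of every 8-base match and occurred in 7.84% of the tested genes. At least 2 copies of GGTGCTA without TGGTGCT were found in 23 of the 14832 genes (0.155%). GGTGCTA was searched after the data were seen, and this pattern was set from the letters of Sparc, so nothing was read from these shares. The matches, in capitals, with flanking bases in lower case are shown for the genes whose sequences can be printed, and they let the kinds of match be compared by eye.
Sparc, chr11:55395469-55395475, minus strand: ttccgcctggggataaGGTGCTAac
Sparc, chr11:55395436-55395442, minus strand: aactgaatacattaacGGTGCTAaa
Igf1, chr10:87931671-87931678, plus strand: tgttttttagtacaaTGGTGCTAtt
Igf1, chr10:87934305-87934312, plus strand: ccagctacgccaatgTGGTGCTAtt
Pdgfc, chr3:81213500-81213507, plus strand: tatttcttccttgtaTGGTGCTAga
Vegfa, chr17:46017169-46017176, minus strand: ttatcatttatttatTGGTGCTAct
Pdgfa, chr5:138977141-138977147, minus strand: tgaacatactatgtaTGGTGCTtca
Pdgfb, chr15:79997148-79997154, minus strand: gattcggacggccaaTGGTGCTtcc
Pik3r1, chr13:101684503-101684509, minus strand: agaggcctttaaccaTGGTGCTtgt
Cdc42, chr4:137320520-137320526, minus strand: aaacgtgtccccaccTGGTGCTctt

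The position of the matches differed between the genes. In Sparc, Pdgfa, Pdgfb and Pik3r1, the matches to at least 7 bases began 70 to 371 bases after the stop codon. The match in Pdgfrb began at base 1662 of 1678, close to the annotated end of the transcript. That in Vegfa began at base 1682 of 1865. Igf1 had the longest 3′-UTR of the 9, 6308 bases, which exceeded 97.9% of those of the tested genes. A match is a description of letters and not evidence of pairing in the cochlea.

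**Figure D1:**
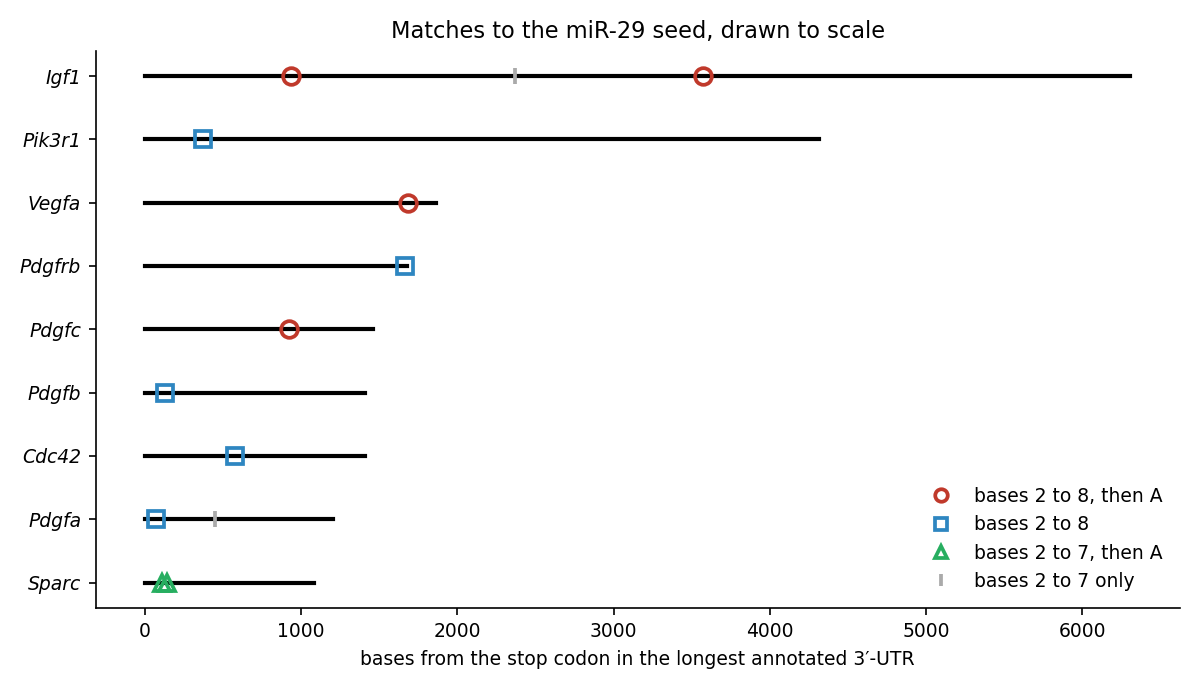
Matches to the miR-29 seed in the longest annotated 3′-UTR of each of the 9 genes, with bases from the stop codon on the horizontal axis and 1 horizontal line per gene drawn to scale. Red circles are 8-base matches, blue squares 7-base matches to bases 2 to 8, green triangles 7-base matches to bases 2 to 7 followed by A, and grey ticks 6-base matches; Sparc has 2 green triangles near the start of its 3′-UTR.

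Expression was deposited as FPKM, the number of fragments scaled by transcript length and by the mapped fragments of the library, which allows levels to be compared between genes per length. Absolute depth is unknown, since FPKM carry no counts. Relative depth was estimated from the commonest ratio between libraries of values under 0.1 FPKM in both. It put the libraries at 0.951 to 1.17 of their median depth. WT1 stood apart. A single gene, Gm8797, took 7.09% of its total FPKM and at most 0.0918% in any other library, and 52.1% of the tested genes had their lowest value in WT1. Of the 9 genes, 6 did. All hair cell, stria vascularis and spiral ligament fibrocyte markers listed (16 genes) passed the filter on low values, so the defining markers of the tissue were present. Their summed FPKM were 28.1 to 42.8 in WT against 23.3 to 34.6 in KO for hair cells, 92.3 to 223 against 97.8 to 139 for the stria vascularis, where 1 of 6 markers was called lower, and 1298 to 2027 against 1484 to 1940 for fibrocytes. Macrophage markers summed to 53.9 to 119 in WT and 59.1 to 116 in KO. In the same libraries, the summed FPKM of 6 bone marrow granulocyte markers ranged from 50.3 to 7615 in WT and from 1480 to 4594 in KO, and that of 6 erythroid markers from 449 to 7381 in WT and from 4862 to 11959 in KO, with 2 erythroid markers called higher. The overlap came from WT1 alone in both sums. WT2 to WT4 lay below every KO library, at 582, 50.3 and 811 for granulocyte and 2352, 449 and 3567 for erythroid markers. Skeletal muscle markers summed to 264 in KO3 and to 0.217 to 31.3 in the other libraries.

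KO and WT were compared by limma on log2(FPKM + 0.1) for every gene whose mean FPKM reached 0.5. A gene was called where its unadjusted p-value (two-sided) was below 0.05. Of 14990 genes, 767 (5.12%) were called, 691 (4.61%) higher and 76 lower in KO, and 0 had a Benjamini-Hochberg adjusted p-value under 0.05. All 9 genes passed the filter on low values. Sparc and Pik3r1 were called, each higher in KO, and none of the 9 was called lower (background 0.507%). Sparc was higher by 2.51-fold and Pik3r1 by 1.27-fold, whereas the estimates of the other 7 lay at or below 1.28-fold with intervals that included no change. The log2 fold change was above 0 in all 9 genes and in 66.5% of all tested genes, with medians of 0.17 and 0.10. With median-ratio scaling of the libraries, the median over all genes was 0.00 and 5.1% of the genes were called, 402 (2.68%) higher and 363 (2.42%) lower, so that 52.5% of the calls were higher against 90.1% without rescaling. Sparc was then the only called gene of the 9. Without WT1, 12.1% of all genes were called higher and 7.4% lower, and of the 9 genes Sparc was called. The groups did not overlap in 3.5% of all tested genes, with KO wholly above WT in 3.02%, and among the 9 genes in Sparc and Pik3r1.

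**Figure D2:**
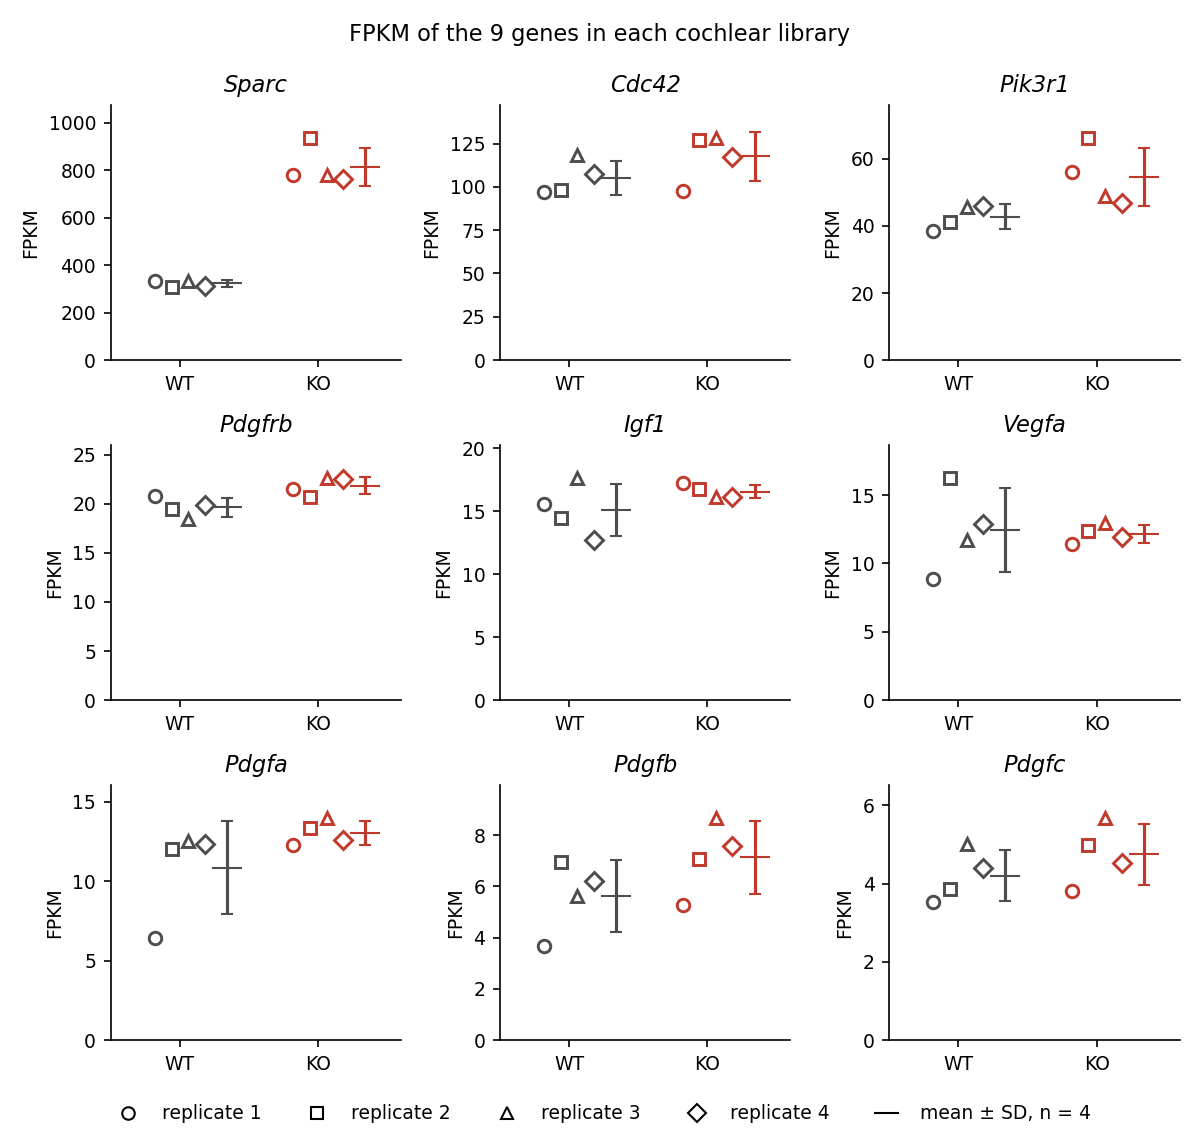
FPKM of the 9 genes (vertical axes, each from 0) in the 4 WT and the 4 KO libraries. Symbols mark the replicate number, and the bar beside each group is the mean with the SD. The KO values of Sparc (764 to 936) lie far above its WT values (310.1 to 335), those of Pik3r1 lie just above, and the groups overlap in the other 7 genes.

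Sparc (ENSMUSG00000018593; chr11:55394500-55423183) encodes a secreted, collagen-binding matricellular glycoprotein that is abundant in bone and in tissue that is being remodelled. Its FPKM was 335 in WT1, 310.1 in WT2, 335 in WT3 and 313 in WT4. In KO1 to KO4 it was 782, 936, 779 and 764. Every KO library was thus above every WT library by a wide margin. WT1, which was lowest for 52.1% of the tested genes, lay level with WT3 for Sparc. The means were 323 ± 13.8 (WT) and 815 ± 80.9 (KO; SD, n = 4), and the coefficient of variation was 4.25% in WT and 9.93% in KO. The log2 fold change was 1.33 (standard error 0.22, 95% interval 0.83 to 1.83), or 1.23 above the median of all genes. Its unadjusted p-value was 0.000217, the smallest but 2 of the 14990 genes, and its adjusted p-value was 0.87 (limma). Across 16 alternative settings the log2 fold change of Sparc lay between 1.23 and 1.36, the unadjusted p-value never exceeded 0.00366, and the adjusted p-value ran from 0.0992 to 1. By level, Sparc ranked between 36 and 42 among all genes in the WT libraries and between 9 and 24 in the KO libraries.

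Markers of the cells that could carry Sparc mRNA were read in the same libraries. In bulk RNA, fewer cells of a type and less RNA per cell cannot be told apart. The summed FPKM of 6 osteoblast markers was 497 in WT1, 229 in WT2, 40.1 in WT3 and 219 in WT4, and lay between 238 and 395 in KO. Of all libraries, WT1 had the highest and WT3 the lowest osteoblast sum. The sums ranged from 179 to 281 in WT and from 219 to 289 in KO for 6 fibroblast markers, from 55.4 to 63.4 and from 61.5 to 72.1 for 6 endothelial markers, from 80.4 to 83.4 and from 78.1 to 110.5 for 6 mural cell markers, and from 9.82 to 243 and from 94.4 to 189 for 5 platelet markers. The groups overlapped in each of these sums, none of these markers was called, and none was at 0 FPKM in all libraries. In the osteoblast and platelet sums, the overlap came from WT1 alone. WT2 to WT4 lay below every KO library there, at 70.7, 9.82 and 86.5 for the platelet markers. In the fibroblast, endothelial and mural cell sums, the overlap did not come from WT1 alone. The part of these cell types in the Sparc difference was not tested.

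**Figure D3:**
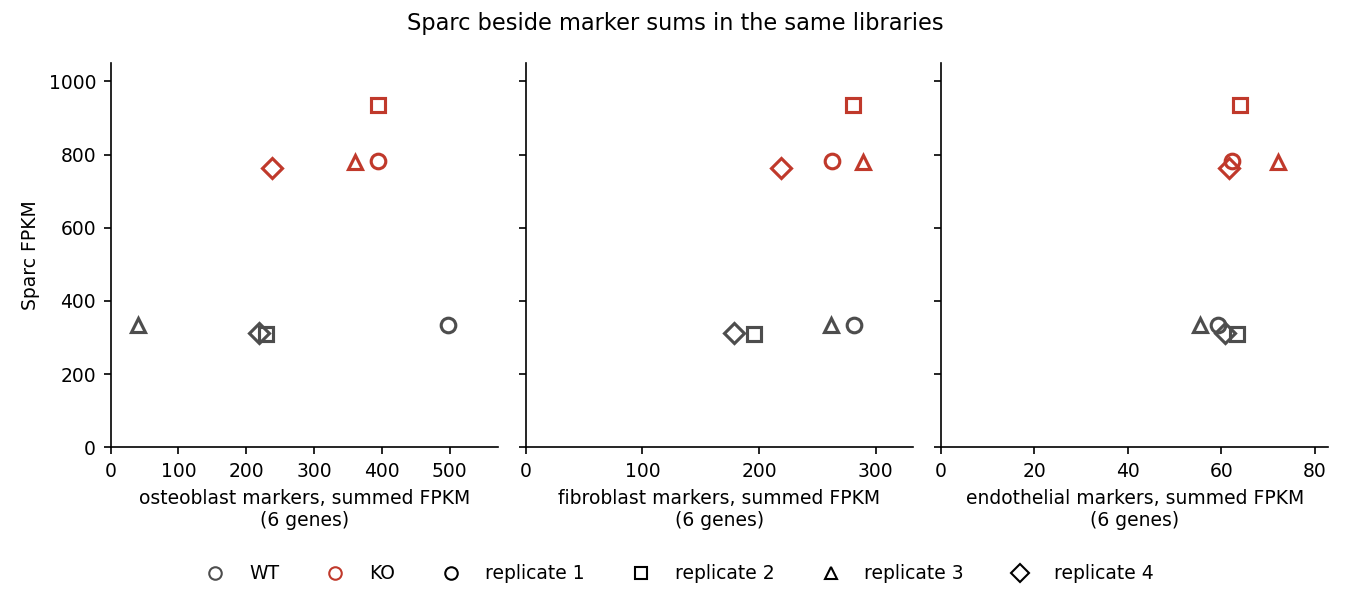
Sparc FPKM (vertical axis) against the summed FPKM of osteoblast, fibroblast and endothelial markers (horizontal axes, 6 genes each), with 1 point per library. WT libraries are grey, KO libraries red, and symbols mark the replicate number. WT libraries lie at a Sparc FPKM of 310.1 to 335 and an osteoblast sum of 40.1 to 497, KO libraries at 764 to 936 and 238 to 395.

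The relatives of Sparc were counted in a list of 15 SPARC-related and other matricellular genes, all tested. Of these, 4 (26.7%) were called, all higher in KO, where 4.61% of all tested genes were called higher. The list's median log2 fold change was 0.35 against 0.10 for all genes. The list was chosen with earlier results of these data known, so nothing was read from this share. Without Sparc itself, 3 of 14 genes were called higher and the median was 0.30. Of the 7 SPARC-related genes besides Sparc, 1 was called and the median was 0.21. Of the 7 other matricellular genes, 2 were called and the median was 0.41. Besides Sparc, the called genes were Ccn2 (connective tissue growth factor), Fstl1 (follistatin-like 1, a secreted glycoprotein with a SPARC-type domain) and Ccn1. Ccn2 had an FPKM of 29.9 ± 5.01 (WT) and 42.0 ± 7.61 (KO; SD, n = 4), with a log2 fold change of 0.48 (adjusted p = 0.947, limma). Fstl1 had an FPKM of 81.4 ± 25.8 (WT) and 118 ± 13.4 (KO; SD, n = 4), with a log2 fold change of 0.59. For Ccn1 the log2 fold change was 0.40. The WT and KO values of Ccn1, Ccn2 and Fstl1 overlapped. The list held 1 called gene without WT2, KO1 or KO2, 2 without KO3 and 6 without WT1, when 19.5% of all genes were called. Sparcl1, the closest relative of Sparc and named here after its values were seen, had the lowest log2 fold change of the list, -0.20 (95% interval -0.64 to 0.25). Its FPKM was 252 ± 33.5 (WT) and 221 ± 35.0 (KO; SD, n = 4). Within each library, where scaling has no part, the ratio of Sparc to Sparcl1 was 1.121 to 1.53 in WT and 2.89 to 4.93 in KO.

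Pik3r1 (ENSMUSG00000041417; chr13:101680563-101768217) encodes p85α, the regulatory subunit that holds and restrains the catalytic subunit of class I PI3K until a receptor binds it. Its FPKM was 38.4, 41.3, 45.6 and 46.0 in WT1 to WT4. It was 56.1, 66.2, 49.0 and 47.0 in KO1 to KO4. The groups were separate, but the lowest KO library (KO4) exceeded the highest WT library (WT4) by little. The means were 42.8 ± 3.65 (WT) and 54.6 ± 8.68 (KO; SD, n = 4), with a log2 fold change of 0.34 (standard error 0.15, 95% interval 0.00 to 0.68; unadjusted p = 0.0488, adjusted p = 0.947, limma). Pik3r1 passed the unadjusted threshold in 4 of the 16 alternative settings, and its unadjusted p-value ranged from 0.0356 to 0.139. It was not called with median-ratio scaling (limma, adjusted p = 0.894) or without WT1 (limma, adjusted p = 0.299).

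The PI3K list held 33 genes, all tested, and 2 were called, both higher in KO, with a median log2 fold change of 0.07. The other called gene was Foxo3, a transcription factor that AKT excludes from the nucleus. Its FPKM was 27.8 ± 2.77 (WT) and 36.6 ± 4.70 (KO; SD, n = 4), with a log2 fold change of 0.39 (unadjusted p = 0.0224, adjusted p = 0.947, limma), and its groups did not overlap. Of the class I catalytic subunits, 0 of 4 was called (log2 fold changes -0.06 for Pik3ca to 0.80 for Pik3cg). Of the other regulatory subunits, 0 of 4 was called (-0.40 for Pik3r3 to 0.62 for Pik3r6), and Pik3r6 had the third smallest p-value of the list. None of the 3 AKT kinases was called (0.06 to 0.21). The 2 calls in 33 genes (6.06%) compare with 5.12% of all genes. Without KO2 or without KO3, 0 genes of the list were called, and without WT1, when 19.5% of all genes were called, 6 were.

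**Figure D4:**
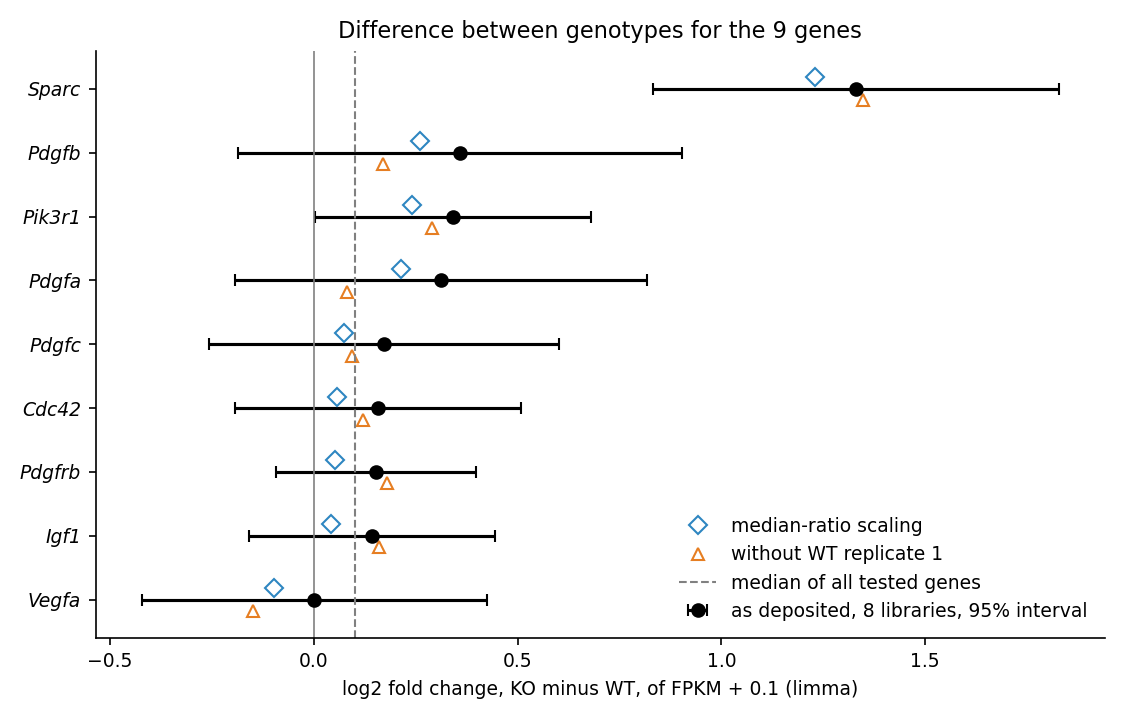
Log2 fold change (horizontal axis, KO minus WT, of FPKM + 0.1) of the 9 genes with the 95% interval from limma (black), after median-ratio scaling (blue diamonds) and without WT1 (orange triangles). The dashed line is the median of all tested genes, 0.10. Sparc stays between 1.23 and 1.35 in these 3 fits, and Pdgfa and Pdgfb move toward 0 without WT1.

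Platelet-derived growth factors act on mesenchymal cells and on the pericytes of vessels. PDGF-A and PDGF-C bind PDGFRα, PDGF-B also binds PDGFRβ, and PDGF-C has to be cut by a protease before it is active. Pdgfa (ENSMUSG00000025856; chr5:138976014-138997370) had an FPKM of 6.45 in WT1, 12.05 in WT2, 12.5 in WT3 and 12.3 in WT4. In KO1 to KO4 it was 12.3, 13.4, 13.96 and 12.6. WT1 alone was low, and the other WT libraries overlapped with KO. Pdgfa had a log2 fold change of 0.31 (95% interval -0.19 to 0.82, adjusted p = 0.947, limma), and 0.08 without WT1.

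Pdgfb (ENSMUSG00000000489; chr15:79995874-80014977) had an FPKM of 3.67, 6.93, 5.63 and 6.21 in WT1 to WT4. It was 5.26, 7.06, 8.66 and 7.59 in KO1 to KO4. WT1 was again the lowest, KO3 was the highest, and the groups overlapped. Its log2 fold change was 0.36 (95% interval -0.19 to 0.90, adjusted p = 0.947, limma), and 0.17 without WT1. Pdgfc (ENSMUSG00000028019; chr3:81036416-81214040) had an FPKM of 3.53, 3.86, 5.02 and 4.39 in WT and 3.81, 4.97, 5.67 and 4.54 in KO. Its groups overlapped over most of their range, with a log2 fold change of 0.17 (95% interval -0.26 to 0.60).

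Pdgfrb (ENSMUSG00000024620; chr18:61045150-61085061), the receptor carried by pericytes and fibroblasts, varied little within the groups, with coefficients of variation of 5.02% in WT and 4.07% in KO. Its FPKM was 20.8, 19.5, 18.4 and 19.9 in WT1 to WT4. In KO1 to KO4 it was 21.5, 20.7, 22.6 and 22.5. Only KO2 fell below a WT library, WT1. The log2 fold change was 0.15 (95% interval -0.09 to 0.40, adjusted p = 0.947, limma), and 0.05 with median-ratio scaling. The other receptor, Pdgfra, had an FPKM of 24.5 ± 2.15 (WT) and 24.8 ± 0.952 (KO; SD, n = 4), with a log2 fold change of 0.02. The PDGF list of 13 genes, which also holds the adaptors and enzymes that bind the active receptors, had 0 called genes and a median log2 fold change of 0.15. Pdgfb, Pdgfrb and Pdgfa had its smallest p-values.

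Igf1 (ENSMUSG00000020053; chr10:87858265-87937042) encodes insulin-like growth factor 1, whose loss is known to impair hearing. Its FPKM was 15.6, 14.5, 17.6 and 12.7 in WT1 to WT4. It was 17.2, 16.7, 16.1 and 16.1 in KO1 to KO4. The KO values fell within the WT range, and their coefficient of variation was 3.34% against 13.7% in WT. Igf1 had a log2 fold change of 0.14 (95% interval -0.16 to 0.44, adjusted p = 0.962, limma). Its receptor gene Igf1r had a log2 fold change of -0.06, with an FPKM of 28.4 ± 2.28 (WT) and 27.2 ± 0.790 (KO; SD, n = 4).

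Of the 17 tested genes of the IGF list, 2 (11.8%) were called, both higher in KO, beside 4.61% of all tested genes called higher. Both are named as IGF binding proteins, and the binding of IGFs was not measured. The list held 1 called gene without WT3, KO1, KO2 or KO3. It was chosen with earlier results of these data known, so nothing was read from the share of 11.8%. Igfbp7 had an FPKM of 19.1, 27.9, 22.01 and 21.1 in WT1 to WT4 and of 41.3, 41.5, 40.9 and 27.2 in KO1 to KO4. KO1 to KO3 lay above all WT libraries, and KO4 lay just below WT2. Igfbp7 had a log2 fold change of 0.73 (standard error 0.19, adjusted p = 0.922, limma). Igfbp4 had an FPKM of 41.3 ± 15.8 (WT) and 64.8 ± 7.53 (KO; SD, n = 4), with a log2 fold change of 0.73 (adjusted p = 0.947, limma), and overlapping groups. The other 4 tested binding proteins were not called. Stc2, an inhibitor of the protease that frees IGFs, had the third smallest p-value of the list and a log2 fold change of 0.63 at an FPKM of 0.389 ± 0.118 (WT) and 0.673 ± 0.278 (KO; SD, n = 4). The median log2 fold change of the list was 0.08.

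Vegfa (ENSMUSG00000023951; chr17:46016993-46032369) encodes the main growth factor for endothelial cells. Its FPKM was 8.83, 16.2, 11.7 and 12.9 in WT1 to WT4. In KO1 to KO4 it was 11.4, 12.4, 13.0 and 11.9. The 4 KO values lay inside the WT range, between WT1 and WT2. The log2 fold change was 0.00 (95% interval -0.42 to 0.43, adjusted p = 0.999, limma), and its sign turned with the setting, from -0.15 without WT1 to 0.14 without WT2. Of the receptors, Flt1 had a log2 fold change of 0.00 and Kdr of 0.14 at FPKM of 12.5 ± 0.970 and 5.62 ± 1.19 in WT (SD, n = 4). In the VEGF list of 14 tested genes, 0 were called and the median log2 fold change was 0.05. Its smallest p-values were those of the co-receptor Nrp2, the lymphatic ligand Vegfc and its receptor Flt4, with log2 fold changes of 0.30, 0.33 and 0.30.

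Cdc42 (ENSMUSG00000006699; chr4:137319696-137357720) encodes a small GTPase that directs actin assembly and cell polarity. Its FPKM was 97.0, 98.2, 118 and 107 in WT1 to WT4. It was 97.6, 127, 128 and 118 in KO1 to KO4. KO1 lay with the lowest WT libraries, and the groups overlapped. The log2 fold change was 0.16 (95% interval -0.19 to 0.51, adjusted p = 0.965, limma), and it was 0.00 after quantile normalization. Of the 37 genes of the CDC42 list, 0 were called, and the median log2 fold change was 0.08. The smallest p-values belonged to Cdc42ep3, a CDC42 effector, Arhgdia and Rhoa, with log2 fold changes of 0.49, 0.29 and 0.25. Without WT1, 8 of the 37 genes were called, beside 19.5% of all genes in the same fit.

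**Figure D5:**
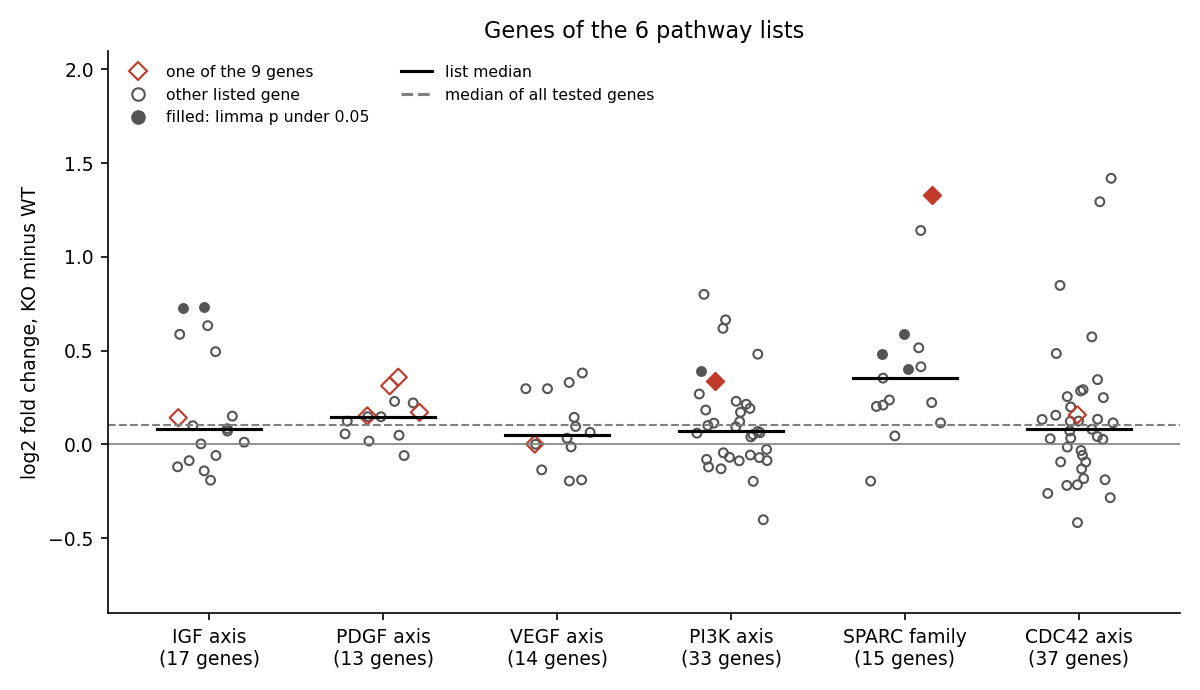
Log2 fold change (vertical axis, KO minus WT) of every tested gene in the 6 pathway lists, with the number of genes below each name. Red diamonds are the 9 genes followed here, grey circles the other listed genes, filled symbols genes with an unadjusted limma p-value under 0.05, short lines list medians and the dashed line the median of all tested genes. The list named SPARC family, which also holds other matricellular genes, has the highest list median, 0.35.

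By mean FPKM over the 8 libraries, the order was Sparc (569), Cdc42 (111), Pik3r1 (48.7), Pdgfrb (20.8), Igf1 (15.8), Vegfa (12.3), Pdgfa (11.9), Pdgfb (6.38) and Pdgfc (4.47). From Sparc down to Igf1, each gene exceeded the next in all 8 libraries, with ranges that were separate in WT and in KO. Vegfa and Pdgfa could not be ordered, since Vegfa was above Pdgfa in 3 libraries only. Igf1 exceeded Vegfa in 6 libraries, and their WT ranges overlapped. Pdgfa exceeded Pdgfb in all 8 libraries, and Pdgfb exceeded Pdgfc in all 8, although the ranges of Pdgfb and Pdgfc overlapped in both groups.

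Profiles across the 8 libraries were compared by the root mean square difference of centred log2 values, among 14125 other genes whose mean FPKM reached 1. Genes chosen in this way share the difference between genotypes through the choice itself, so nothing was read from their fold changes. For Sparc, the most alike were Endou (difference 0.26) and Col3a1 (0.26), each with KO values wholly above the WT values and log2 fold changes of 1.10 and 1.09. The FPKM of Col3a1, a fibrillar collagen gene, was 28.4 ± 5.44 (WT) and 59.8 ± 2.45 (KO; SD, n = 4). For Pik3r1, they were Fbxo30 (0.07) and Pak1ip1 (0.08), with log2 fold changes of 0.33 and 0.34. For Pdgfb, they were Mgat4b (0.09) and Rbm4b (0.10), which shared its low value in WT1.

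The log2 fold changes can be read by the kind of seed match. The 3 genes with an 8-base match, Igf1, Pdgfc and Vegfa, had log2 fold changes of 0.14, 0.17 and 0.00. The 5 genes with a 7-base match to bases 2 to 8 alone, Pdgfa, Pdgfb, Pdgfrb, Pik3r1 and Cdc42, lay between 0.15 and 0.36. Sparc, with its pair of matches to bases 2 to 7 followed by A, stood at 1.33. This is a description of 9 genes, without a test, and GGTGCTA was searched after the data were seen. Among other genes tied to miR-29 were the matrix genes Col4a1 to Col4a5, Lamb2 and Lamc1. The paper reported each of them as a direct target from luciferase and inhibitor assays, with more mRNA and protein in KO cochlea. Here, 3 genes of this list of 7 were called (Col4a1, Col4a2 and Lamc1), all higher in KO. The log2 fold change was above 0 in all 7, with a median of 0.44. Over all tested genes, 4.61% were called higher and the median was 0.10. The log2 fold change was 1.32 for Col4a1 and 1.29 for Col4a2, beside 1.33 for Sparc. The 7 DNA methylation enzymes had 1 called gene, Tet3 (0.50), and a median of 0.32. The differences between these lists were not tested.

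Little of the sequence of the 9 genes is shared with other genes. The share of 50-base words that occur in another gene's transcripts was 2.19% for Cdc42 and at most 0.617% for the others. Exons of 6330403L08Rik overlap those of Pdgfa on the opposite strand, and exons of Gm16000 those of Pdgfc. The libraries kept the strand, but the use of strand in counting was not given in the sources used here, so reads of these pairs may not have been told apart.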

How the data were processed

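Cochlear libraries, 4 WT and 4 KO, were compared, with the group and replicate number taken from the sample titles. According to the labels and methods, the authors made strand-specific libraries after removal of ribosomal RNA, aligned the read pairs by Hisat2, and the FPKM they deposited hold 1 value for each gene in each library. The library protocol also names an RNase R step. The tool and annotation behind the FPKM were not given in the sources used here. The submitters' processing notes name mm9, but 19771 of 21895 genes have the coordinates of GENCODE M21 on GRCm38, and all 9 genes do. Symbols of 27 genes had become dates and were restored by gene identifier. 

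The log2 of FPKM plus 0.1 was fitted with limma 3.58.1 in R 4.3.3, with genotype as the factor, moderated variances with a mean-variance trend and a minimum mean FPKM of 0.5, without rescaling. The authors' test, on counts, was not repeated. Benjamini-Hochberg adjustment covered all tested genes. The fit was run on data simulated with independent noise for each gene. No library was made to stand apart there as WT1 did, so the run says nothing about that. The members and lists were chosen with earlier results of these data known. Named genes are the 9 members, the receptors of the ligands, the 3 smallest p-values and any opposite call in each of 6 pathway lists, the 2 most alike profiles for the 3 members with the smallest p-values, and marker genes at 0 FPKM. Ccn1, the matrix genes reported as targets by the study, Tet3, Sparcl1, and the lowest and highest genes of groups by role were named after their values were seen. The lists of 12 cell types were read as sums. Alternatives were a pseudocount of 1, no filter, a minimum of 1, median-ratio scaling, quantile normalization, no trend, the replicate block, the 6 libraries with replicate numbers 1 to 3, and leaving out each library. Total FPKM per library was 249221 to 288695, and precision from counting could not be given.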

Additional observations from a re-analysis of the deposited data

Results flagged for a closer look

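In 64 groups of 4 libraries (32 named genes, WT and KO), 4 held a library far from the other 3, with a gap to its nearest neighbour that exceeded Dixon's 95% critical value. Chance flags about 1 in 20 groups. The FPKM of Pdgfa in WT1 was 6.45, against 12.05 to 12.5 in the other WT libraries. The FPKM of Sparc in KO2 was 936, the highest KO value, against 764 to 782 in the other KO libraries, so that without KO2 the log2 fold change of Sparc was 1.26. The FPKM of Pdgfra in KO1 was 23.4, against 25.1 to 25.5. The FPKM of Igfbp7 in KO4 was 27.2, against 40.9 to 41.5 in the other KO libraries.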

How the results depend on the processing

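Sparc was called in all 16 alternative settings. Pik3r1 was called in 4 of them, namely a pseudocount of 1, no filter, a minimum mean FPKM of 1, and without KO4. Its log2 fold change was 0.24 after median-ratio scaling, 0.23 after quantile normalization, 0.34 without the trend and with the replicate block, and 0.44 in the 6 libraries with replicate numbers 1 to 3. In each of those 5 settings 1 member was called. Igf1, Pdgfa, Pdgfb, Pdgfc, Pdgfrb and Cdc42 kept a log2 fold change above 0 and stayed uncalled in all 16. That of Vegfa was -0.00054 with a pseudocount of 1, -0.10 after median-ratio scaling and -0.11 after quantile normalization.

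Leaving out each library in turn gave log2 fold changes of 1.26 to 1.36 for Sparc, 0.24 to 0.41 for Pik3r1, -0.15 to 0.14 for Vegfa, and 1 to 2 called members. The count of called genes ran from 347 without KO3 to 2922 without WT1, and was 377 without KO2. In the lists it ran from 1 to 3 (IGF), 0 to 1 (VEGF), 0 to 6 (PI3K), 1 to 6 (SPARC) and 0 to 8 (CDC42). The number of genes with an adjusted p-value under 0.05 was 0 or 1 there, 3 without the filter and 1 in the 6 libraries. After median-ratio scaling, quantile normalization, dropping the trend, the replicate block and in the 6 libraries, 1 gene of the PI3K list was called. The SPARC list held 2 called genes with the replicate block and after either rescaling, and the CDC42 list held 1 after median-ratio scaling and 2 after quantile normalization. Quantile normalization gave 378 genes higher and 547 lower in KO. An 8-base match was present in 3 members, and GGTGCTA, searched after seeing the data, in 4.

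The deviations of same-numbered WT and KO libraries from their group means had correlations of 0.419, -0.24, -0.17 and 0.21 across genes. These mixed signs cannot show whether the samples were paired, and the titles give replicate numbers only. With the replicate block, 838 genes were called. The causes of these changes were not tested. Absolute depth is unknown, and precision rests on 4 libraries per group.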

Other observations

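The 4 PDGF ligand genes kept similar proportions in the 2 genotypes. Of their summed FPKM, Pdgfa made up 41.2% ± 4.90 in WT and 43.1% ± 2.01 in KO, Pdgfb 21.5% ± 2.01 and 23.4% ± 2.86, Pdgfc 16.4% ± 2.47 and 15.6% ± 1.10, and Pdgfd 20.8% ± 4.92 and 17.9% ± 2.02 (SD, n = 4 per group). The ratio of Pdgfrb to Pdgfra within a library was 0.808 ± 0.108 (WT) and 0.882 ± 0.0408 (KO; SD, n = 4), with overlapping ranges. These ratios do not depend on scaling between libraries, and they were chosen after the values had been seen.

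Among the 245 genes whose mean FPKM reached 100, the KO values lay wholly above the WT values in 8, of which Sparc was 1. Over all tested genes, this held for 452 of 14990 (3.02%). By log2 fold change, Sparc ranked 31 of these 245 genes.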
